A study of Mus musculus with 4 samples.

Results

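The genes followed here encode REST, a zinc finger repressor of neuronal genes, and the corepressors and deacetylases that it shares with other neuronal zinc finger repressors. There are 10 of them, namely Rest, the CoREST genes Rcor1, Rcor2 and Rcor3, Kdm1a (which encodes the demethylase LSD1), the scaffold genes Sin3a and Sin3b, and the class I deacetylase genes Hdac1, Hdac2 and Hdac3. They were listed by name, with no threshold on their values, and all 10 were among the 34968 gene symbols listed in every library. Expression was measured by bulk RNA-seq of tdTomato+ neurons derived from mouse embryonic stem (ES) cells on day 12 of differentiation, with 2 libraries from the N/D line and 2 from the N/D/S line, each numbered replicate 1 and replicate 2 in the labels. These libraries are called N/D-1, N/D-2, N/D/S-1 and N/D/S-2 after their labels.

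Both lines came from one Dlx6a-Cre; Ai9 parental ES cell line, labelled with the strain C57/BL6, in which Cre from a Dlx6a driver turns on the tdTomato reporter. Both also carried Nestin-Nkx2-1-IRES-tTA2S, in which a Nestin element drives Nkx2-1 and a tetracycline transactivator. The N/D line held TRE-Dlx2 in addition, and the N/D/S line held TRE-Dlx2-St18, so that only the latter had a transgenic copy of St18, a zinc finger factor of the Myt1 family. Clones were picked after hygromycin selection, and a difference between the lines therefore cannot be told apart from a difference between clones. Embryoid bodies of both lines received XAV-939, a Wnt inhibitor, and SAG, a Sonic hedgehog agonist, and were sorted for tdTomato before poly-A RNA was sequenced. The labels do not say that replicates were separate cultures, so the p-values measure the spread between these libraries, which may be technical.

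REST binds a DNA element called RE1 in and near neuronal genes, and silences them in stem cells, progenitors and non-neuronal cells. One arm of the protein recruits SIN3 with HDAC1 and HDAC2, and the other recruits CoREST with LSD1 and the same deacetylases, and these enzymes remove the acetyl and methyl marks of active chromatin. REST is lost as neurons mature, whereas the corepressors stay and are used by other DNA-binding factors, among them the Myt1 family, which binds SIN3B and LSD1.

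To show what REST reads, 4 matches to the core of RE1 are printed for genes expressed in these neurons: Gad2, which encodes a GABA-synthesizing enzyme, Gria2, which encodes an AMPA receptor subunit, Celsr3, an axon guidance cadherin, and Syn1, a synaptic vesicle protein. The letters are from the RefSeq promoters of GRCm38.p6, 5′ to 3′ on the strand that holds the match, with the core AGCACCNNGGNCAG in capitals. All 4 matches are upstream of the RefSeq start of their gene, outside its exons.
Gad2, chr2:22622154-22622187, + strand: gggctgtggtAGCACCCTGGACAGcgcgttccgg
Gria2, chr3:80802982-80803015, + strand: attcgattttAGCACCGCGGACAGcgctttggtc
Celsr3, chr9:108825911-108825944, + strand: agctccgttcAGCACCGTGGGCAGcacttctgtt
Syn1, chrX:20921124-20921157, − strand: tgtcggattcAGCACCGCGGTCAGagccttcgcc

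The core began 163 bases before the start of Gad2 and 124 bases before that of Celsr3, counted along the gene. For Syn1, it lay between 229 and 216 bases before the start, and for Gria2, which is transcribed from the other strand, between 170 and 157 bases before it. Both strands of 32851 promoters of 300 bases were searched, and 33 of them, 0.1%, held the core. Of 18 known REST target genes with a promoter in the table, 3 held it (Celsr3, Gria2 and Syn1), while Gad2 was on a list of GABAergic markers instead. The stricter core AGCACCNNGGACAG was found in 17 promoters (0.0517%), and the left part TTCAGCACC, which can overlap the core, in 122 (0.371%). None of the 3 strings was found in the promoters of the 7 corepressor and deacetylase genes that the table holds (Rcor1, Rcor2, Rcor3, Kdm1a, Sin3a, Sin3b and Hdac2). The strings were chosen after matches had been looked at, and a match is a description of letters rather than a measured binding site.

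The libraries differed in how many genes they listed, and this bears on every value below. N/D-1 listed 13426 genes above 0 and the other libraries 17118 to 20750, and 613 of the 6139 genes with at least 10 TPM (the abundance of transcripts, scaled to their length and to a common library total) in each other library were listed at 0 in it, against 0 to 2 genes for the others. Results are therefore given with and without N/D-1. All 7 pan-neuronal markers and all 10 GABAergic and medial ganglionic eminence markers, by which the cell type label was checked, were at 1 TPM or more in every library. The line labels were not separated by St18 itself, which had 44.4 and 15.9 TPM in N/D/S-1 and N/D/S-2 and 28.5 and 26.6 TPM in N/D-1 and N/D-2 (log2 fold change −0.04, SE 1.03). Groups are therefore named as their labels name them. In sorted bulk samples, fewer cells of a type and less RNA per cell cannot be told apart.

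Rest was the least abundant of the 10 genes, as its mean over the 4 libraries shows (0.78 on the log2(TPM + 1) scale). It is on chromosome 5 of GRCm38, from 77265491 to 77286432 on the + strand, with 4 exons in its longest coding transcript (GENCODE M21). Rest had 1.07 TPM in N/D/S-1, 0.315 TPM in N/D/S-2, 0.00232 TPM in N/D-1 and 2.15 TPM in N/D-2. The N/D libraries held both the highest and the lowest value, so the lines overlapped. Its fold change between the lines, N/D/S against N/D, was −0.11 on the log2(TPM + 1) scale (SE 1.06, 95% interval −2.62 to 2.41, n = 2 libraries per line, limma, adjusted p = 1). Without N/D-1, it was −0.93 (−3.18 to 1.32, adjusted p = 1). In that fit, here and for the genes that follow, N/D-2 alone stood for its line and was assumed to vary like N/D/S. Limma also gave all 10 genes the same SE of 1.15. These intervals and p-values therefore carry no spread of the N/D line and none particular to a gene. Rest was far below its demethylase partner and the leading CoREST gene in every library, with a TPM ratio to Kdm1a of at most 0.014 and to Rcor2 of at most 0.0349.

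Rest RNA can be high where cells are not yet neurons, and markers of such cells varied between libraries. The summed level of 5 pluripotency markers was 3.60 TPM in N/D/S-1, 292.4 TPM in N/D/S-2, 0.247 TPM in N/D-1 and 184.3 TPM in N/D-2, with Pou5f1, Zfp42, Dppa5a and Esrrb at 0 in N/D-1. For 8 neural progenitor markers, the sums were 501.6, 707.3, 464.2 and 1186 TPM in the same order, and for 9 markers of astrocytes and oligodendrocytes 15.0, 79.2, 5.31 and 190.1 TPM. N/D-2 thus had the highest Rest level and the highest of both sums, and N/D-1 the lowest of each. The order of the progenitor sums rested on Fabp7, a radial glial lipid carrier, with 179.1, 505.6, 133.6 and 906.5 TPM in the same order, whereas Vim, Pax6 and Hes1 were highest in N/D-1 and Hes5 and Notch1 were listed at 0 there. N/D/S-2 had the highest pluripotency sum and the second lowest Rest level. The part of these cells in the Rest level was not tested.

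Among the CoREST genes, which encode the SANT-domain scaffolds that tie LSD1 to nucleosomes, Rcor2 was the leading form in every library. Rcor2 (chromosome 19, 7267325 to 7275225, + strand) had 78.7 TPM in N/D/S-1, 48.7 TPM in N/D/S-2, 129.7 TPM in N/D-1 and 61.4 TPM in N/D-2. It was 1 of 2 genes among the 10 with their highest level in N/D-1, and the only one that was lower in N/D/S under both replicate numbers, by −0.71 and −0.33 on the log2(TPM + 1) scale. Even so the lines overlapped, since N/D/S-1 was above N/D-2. The log2 fold change was −0.52 (SE 1.01, −2.91 to 1.87, adjusted p = 1), and 0.01 (−2.24 to 2.26, adjusted p = 1) without N/D-1.

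Rcor1, the CoREST gene after which the complex is named, was less abundant than Rcor2 and Rcor3 in all 4 libraries. Rcor1 (chromosome 12, 111039351 to 111115901, + strand) was at 13.7 TPM in N/D/S-1, at 0.483 TPM in N/D/S-2, listed at 0 in N/D-1 and at 11.7 TPM in N/D-2. Rcor3 (chromosome 1, 192098546 to 192138062, − strand) was at 22.0, 4.10, 0.207 and 21.8 TPM in the same order. Both genes were at like levels in N/D/S-1 and N/D-2 and far lower in the other library of each line. The log2 fold change was 0.39 for Rcor1 (SE 1.63, −3.45 to 4.24) and 1.05 for Rcor3 (SE 1.59, −2.71 to 4.80), both with an adjusted p of 1. Without N/D-1, the signs turned, to −1.44 (−3.69 to 0.81) for Rcor1 and −1.07 (−3.32 to 1.18) for Rcor3. N/D/S-2 then stood below the other libraries for both genes.

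The makeup of the CoREST family varied with these values. Rcor2 made up 68.8% and 91.4% of the summed Rcor TPM in N/D/S-1 and N/D/S-2, and 99.8% and 64.8% in N/D-1 and N/D-2. The mean share of Rcor2 was 80.1% ± 16.0 (SD, n = 2) in N/D/S and 82.3% ± 24.8 (SD, n = 2) in N/D, a difference well within the spread of either line (exact permutation test, two-sided, p = 1, where 2 against 2 libraries cannot give a p below 1 in 3). In the libraries other than N/D-1, Rcor2 was 5.27 to 100.8 times as abundant as Rcor1 and 2.82 to 11.9 times as abundant as Rcor3. The stacked shares show that the minor CoREST genes took a visible part in only 1 library of N/D and, at a lower share, in both of N/D/S.

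**Figure D1:**
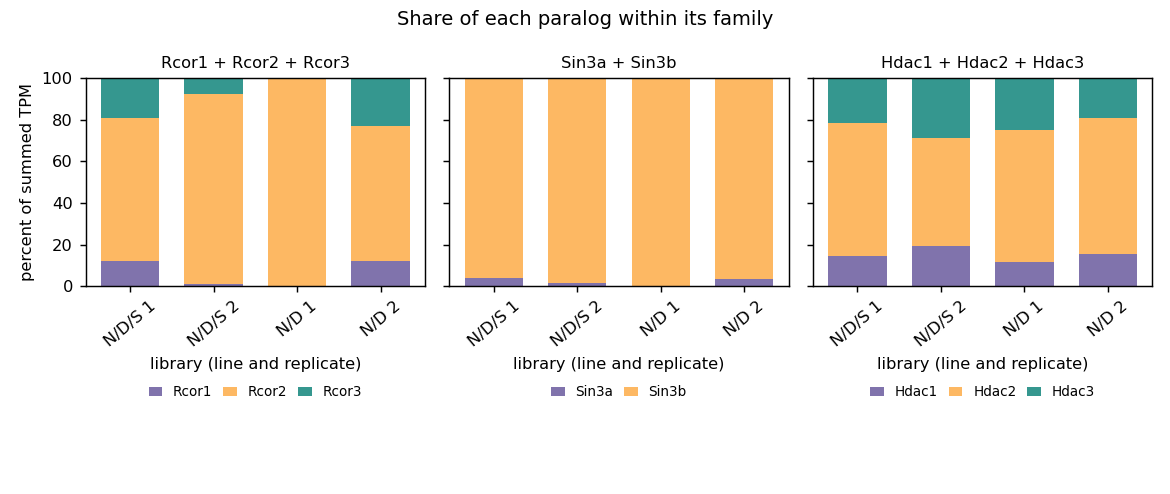
Percent of the summed TPM of each family (vertical axis) held by each paralog in the 4 libraries (horizontal axis), for the CoREST, SIN3 and class I deacetylase genes. Rcor2, Sin3b and Hdac2 were the leading forms in every library, with Rcor2 between 64.8% and 99.8%, Sin3b between 96.1% and 99.95%, and Hdac2 between 52.1% and 65.3%.

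Kdm1a encodes LSD1, the amine oxidase that removes methyl groups from lysine 4 of histone H3 and that is stable and active on nucleosomes only with a CoREST protein. Kdm1a (chromosome 4, 136550540 to 136602723, − strand) had 236.4 TPM in N/D/S-1, 77.2 TPM in N/D/S-2, 48.5 TPM in N/D-1 and 153.8 TPM in N/D-2. The libraries of each line thus differed more than the means of the lines, and the ranges overlapped. The log2 fold change was 0.64 (SE 1.13, −2.04 to 3.32, adjusted p = 1), with a difference of 2.26 between the libraries numbered 1 and of −0.99 between those numbered 2. It was −0.18 (−2.43 to 2.07, adjusted p = 1) without N/D-1. Set against the summed Rcor TPM, Kdm1a was 2.07 and 1.45 times as abundant in N/D/S-1 and N/D/S-2 and 1.62 times in N/D-2. In N/D-1 the order was turned, with a ratio of 0.374.

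The SIN3 proteins are scaffolds without enzyme activity of their own, which hold the deacetylases and are bound by the amino-terminal arm of REST. Sin3b was the most abundant of the 10 genes by its mean level, and varied less within the lines than all of them but Hdac3 (residual SD 0.46 on the log2(TPM + 1) scale). Sin3b (chromosome 8, 72723285 to 72758201, + strand) had 435.6 TPM in N/D/S-1, 433.2 TPM in N/D/S-2, 557.9 TPM in N/D-1 and 295.4 TPM in N/D-2. Both N/D/S libraries lay between those of N/D. Its log2 fold change was 0.10 (SE 0.98, −2.23 to 2.42, adjusted p = 1), and 0.55 (−1.70 to 2.80, adjusted p = 1) without N/D-1.

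Sin3a, the paralog that is essential in early embryos, was at a small part of the Sin3b level throughout. Sin3a (chromosome 9, 57072040 to 57128366, + strand) had 17.5 TPM in N/D/S-1, 5.79 TPM in N/D/S-2, 0.265 TPM in N/D-1 and 11.2 TPM in N/D-2. N/D-2 was between both N/D/S libraries, so the lines overlapped here too. The log2 fold change of 1.52 was the largest among the 10 genes (SE 1.35, −1.67 to 4.70, adjusted p = 1), and it rested on N/D-1, without which it was −0.12 (−2.37 to 2.13, adjusted p = 1). Sin3b made up 97.4% ± 1.8 (SD, n = 2) of the Sin3 TPM in N/D/S and 98.2% ± 2.54 (SD, n = 2) in N/D (exact permutation test, two-sided, p = 0.667). In the libraries other than N/D-1, Sin3b was 24.9 to 74.8 times as abundant as Sin3a.

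HDAC1 and HDAC2 are the deacetylases of the SIN3, CoREST and NuRD complexes, and HDAC3 works with NCoR and SMRT instead. Hdac2 (chromosome 10, 36974544 to 37001889, + strand) had 401.7 TPM in N/D/S-1, 182.3 TPM in N/D/S-2, 202.4 TPM in N/D-1 and 427.5 TPM in N/D-2. Each line thus had one library at a level well above the other, and the difference between the lines was small beside it. The log2 fold change was −0.12 (SE 1.04, −2.58 to 2.34, adjusted p = 1), and −0.66 (−2.91 to 1.59, adjusted p = 1) without N/D-1.

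Hdac1 (chromosome 4, 129516104 to 129542713, − strand) was at 90.8 TPM in N/D/S-1, 67.7 TPM in N/D/S-2, 37.2 TPM in N/D-1 and 101.3 TPM in N/D-2. The N/D libraries were the lowest and the highest, with both N/D/S libraries between them. Its log2 fold change was 0.35 (SE 1.03, −2.09 to 2.79, adjusted p = 1), and −0.36 (−2.61 to 1.89, adjusted p = 1) without N/D-1. The Hdac1 level is uncertain, because 40% of the 31-base words in its annotated transcripts also occur in transcripts of other genes, 34.8% in those of Gm10093 alone. Gm10093 was listed at 0.182 TPM or less in every library. For the other 9 genes, the shared part was 8.18% or less, and it was highest for Rcor3.

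Hdac3 (chromosome 18, 37935844 to 37955016, − strand) had 133.2 TPM in N/D/S-1, 99.6 TPM in N/D/S-2, 78.6 TPM in N/D-1 and 126.1 TPM in N/D-2. It varied least of the 10 genes within the lines, with a residual SD of 0.40 on the log2(TPM + 1) scale, against a median of 1.03 over all genes tested. Its log2 fold change was 0.21 (SE 0.98, −2.10 to 2.52, adjusted p = 1), and −0.13 (−2.38 to 2.12, adjusted p = 1) without N/D-1. Hdac2 was 2.69 to 5.44 times as abundant as Hdac1 and 1.83 to 3.39 times as abundant as Hdac3 over all 4 libraries. The share of Hdac2 among the 3 deacetylase genes was 58.2% ± 8.53 (SD, n = 2) in N/D/S and 64.5% ± 1.17 (SD, n = 2) in N/D (exact permutation test, two-sided, p = 0.667). The lower mean in N/D/S came from replicate 2, at 52.1%, while replicate 1, at 64.2%, lay between the N/D libraries, at 63.6% and 65.3%.

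By mean log2(TPM + 1) over the 4 libraries, the order of the 10 genes ran from Sin3b (8.72) and Hdac2 (8.15) over Kdm1a (6.77), Hdac3 (6.76), Rcor2 (6.24) and Hdac1 (6.14) to Rcor3 (2.91), Sin3a (2.73), Rcor1 (2.03) and Rest (0.78). Only 2 steps of this order held in all 4 libraries, Hdac2 above Kdm1a and Hdac1 above Rcor3. Kdm1a and Hdac3 exchanged places in 2 of the 4 libraries, as did Rcor3 and Sin3a, and Rcor2 was above Hdac1, Hdac3 and Kdm1a only in N/D-1. The genes thus fell into an abundant set of 6 and a sparse set of 4 (Rest, Rcor1, Rcor3 and Sin3a), which did not exchange members in any library.

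**Figure D2:**
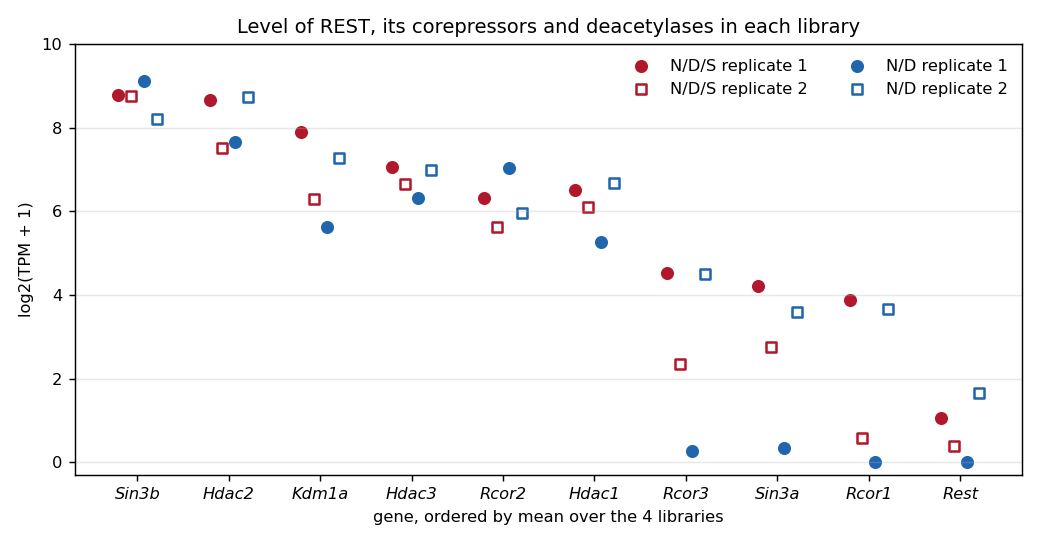
Level of each of the 10 genes in each library, as log2(TPM + 1) on the vertical axis, with genes ordered by their mean on the horizontal axis, N/D/S libraries in red and N/D libraries in blue. The 4 sparse genes were near 0 in N/D-1, and N/D/S-2 was below N/D/S-1 for all 10 genes.

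The lines were compared by their labels for the corepressors that Myt1-family factors use. St18 did not separate these labels (log2 fold change −0.04, SE 1.03), so an effect of adding St18 cannot be read from these libraries. All 10 genes passed the filter of at least 1 TPM in at least 2 libraries, which left 12975 genes for the test. None of the 10 passed limma at an adjusted p of 0.05, and neither did any other gene (0%), and at an unadjusted p under 0.05 the counts were 0 of 10 and 8 of all genes tested (0.0617%, 3 higher and 5 lower in N/D/S). The latter count was 207 without the filter, 224 with a variance trend and 486 under upper quartile scaling. No gene of the 10 had lines that did not overlap, against 2195 of all genes tested (16.9%). The estimate was higher in N/D/S for 7 genes and lower for 3, with a median log2 fold change of 0.28, against 0.26 over all genes tested. Without N/D-1, it was higher for 2 and lower for 8, with a median of −0.27, against −0.29 over all genes. The sign changed for 7 genes. The 95% intervals reached at least 2 log2 units to either side of 0 for 8 of the 10 genes. Their width depended on how the spread was pooled over genes, with SEs from 0.98 to 1.63 here, from 0.52 to 2.14 with a variance trend and from 0.35 to 2.11 without the filter, and none of the 10 genes had an adjusted p other than 1 in either of these.

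**Figure D3:**
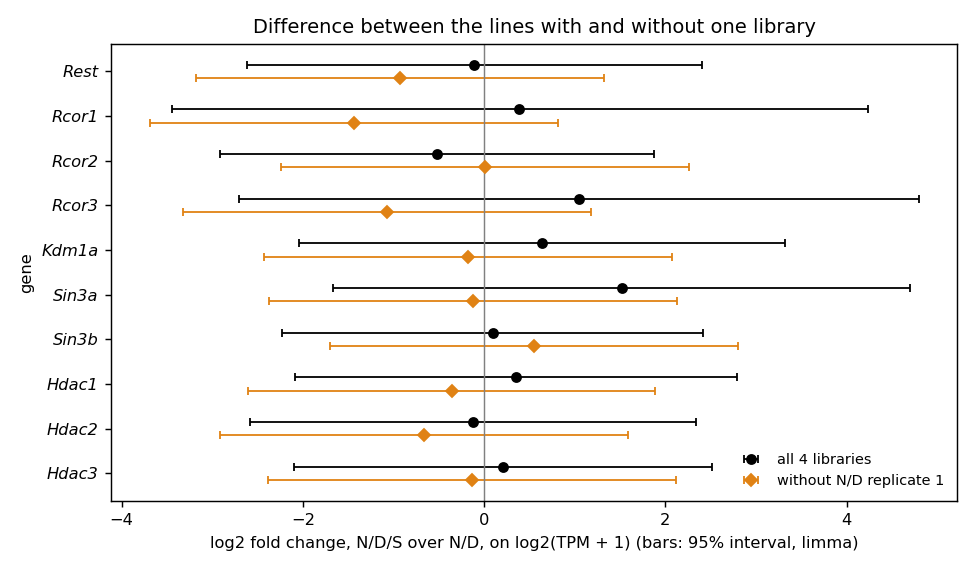
Log2 fold change, N/D/S against N/D, on the log2(TPM + 1) scale (horizontal axis) for each gene (vertical axis), with 95% intervals from limma, for all 4 libraries (black) and without N/D-1 (orange). Every interval includes 0, and the estimate moved to the other side of 0 for 7 genes when N/D-1 was left out. The orange intervals share one width because limma gave every gene shown the same SE in that fit. There, N/D-2 alone stood for its line.

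The libraries with the same replicate number gave opposite answers for 9 of the 10 genes. Between the libraries numbered 1, N/D/S was above N/D by 4.25 for Rcor3, 3.88 for Rcor1, 3.87 for Sin3a and 2.26 for Kdm1a on the log2(TPM + 1) scale. Between those numbered 2, the same genes differed by −2.16, −3.09, −0.84 and −0.99. Sin3b alone had the opposite pair of signs, with −0.36 and 0.55, and Rcor2 was lower in N/D/S in both. Within the N/D/S line, the libraries also differed, since N/D/S-2 was below N/D/S-1 for 10 of 10 genes, against 73.2% of all genes tested, and below both N/D/S-1 and N/D-2 for 9 of 10, against 66.4%.

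The behaviour of N/D-1 followed how abundant a gene was elsewhere. Of the 4534 genes with a mean of 5 to 25 TPM in the other libraries, 52.5% were under 1 TPM in it, and all 3 corepressor genes of this range (Rcor1, Rcor3 and Sin3a) were among them. Of 1510 genes between 100 and 500 TPM, 1.0% were under 1 TPM, and Kdm1a, Sin3b, Hdac2 and Hdac3, which fall in this range, were all well above it. The median ratio of this library to the mean of the others was 0.048 in the first range and 0.889 in the second. In N/D/S-2, by contrast, 6.0% of the genes of 5 to 25 TPM were under 1 TPM, and Rcor1, at 0.483 TPM, was the 1 of the 3 corepressor genes among them. Of the 10 genes, 7 had their lowest level in N/D-1, against 56.3% of all genes tested, and 2 had their highest level there (Rcor2 and Sin3b), against 21.2%.

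**Figure D4:**
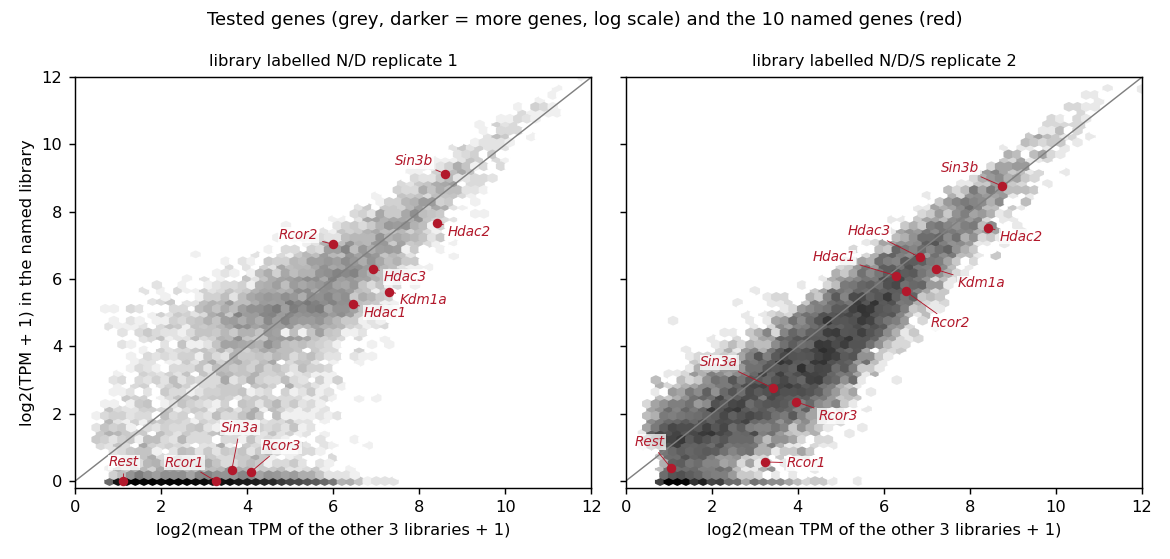
Level in N/D-1 (left) and in N/D/S-2 (right) on the vertical axis against the mean of the other 3 libraries on the horizontal axis, both as log2 with 1 TPM added, for all tested genes (grey, darker where there are more) and the 10 corepressor genes (red). On the left, Rest, Rcor1, Rcor3 and Sin3a lie in the band at the bottom with many other genes, and on the right only Rcor1 is far below the diagonal beside genes of its level.

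The genes around REST were described from lists of known partners, and the extreme values given are those of genes at 1 TPM or more in every library. Without N/D-1, the medians of these lists lay between −0.63 and −0.11, against −0.29 over all genes tested. Of 8 cofactors that REST or its complexes recruit, all were tested, none passed the test, and 5 had a higher and 3 a lower estimate in N/D/S (median 0.33), which became 2 higher and 6 lower without N/D-1. Ctbp1, a corepressor that binds NAD, had the largest log2 fold change among cofactors with at least 1 TPM in every library (0.84, SE 1.19, and −0.42 without N/D-1), from 349.1 and 193.1 TPM in N/D/S-1 and N/D/S-2 and 60.1 and 347.9 TPM in N/D-1 and N/D-2. Ehmt1, a histone H3 lysine 9 methyltransferase, had the smallest (−0.50, SE 1.06, and −0.32 without N/D-1). Phf8, a histone demethylase, was the 1 cofactor whose lines did not overlap (20.6 and 13.1 TPM in N/D/S-1 and N/D/S-2 against 0.134 and 11.6 TPM in N/D-1 and N/D-2), to be set beside 16.9% of all genes tested. Of 4 genes that act on the splicing or the turnover of REST, 3 had a higher estimate and 1 a lower one, and without N/D-1 it was 1 higher and 3 lower. Srrm4, the neuronal splicing factor that turns Rest RNA into a truncated form, had 8.50 and 5.37 TPM in N/D/S-1 and N/D/S-2 and 4.28 and 8.53 TPM in N/D-1 and N/D-2, so Srrm4 exceeded Rest in each library. Values per gene symbol do not tell the spliced forms of Rest apart. Within this list, Usp7, which removes ubiquitin, had the largest value (0.80, SE 1.28, and −0.53 without N/D-1) and Csnk1a1, a casein kinase, the smallest (−0.44, SE 1.04, and −0.68 without N/D-1).

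The partners of CoREST and the subunits of the SIN3 complex were spread to both sides. Among 12 CoREST partners, 9 were tested, with 7 estimates higher and 2 lower in N/D/S (median 0.39), or 1 higher and 8 lower without N/D-1, while Gfi1 and Gfi1b, which bring LSD1 to blood cell genes, were listed at 0 in all 4 libraries. Phf21a, the subunit that reads unmethylated lysine 4 of histone H3, had 39.2 and 7.53 TPM in N/D/S-1 and N/D/S-2 and 1.26 and 30.8 TPM in N/D-1 and N/D-2 (1.13, SE 1.52, and −0.78 without N/D-1), the same high and low libraries as Rcor1 and Rcor3. N/D-1 was the lowest library for 56.3% of all genes tested. Zmym2, a zinc finger subunit, had the smallest log2 fold change (−0.73, SE 1.08, and −0.23 without N/D-1). Of 27 SIN3 complex genes, 25 were tested, with 13 higher and 12 lower (median 0.04), or 6 higher and 19 lower without N/D-1. Among SIN3 genes at 1 TPM or more in every library, the values ran from Kdm5a, a histone H3 lysine 4 demethylase (1.00, SE 1.20, and −0.27 without N/D-1), to Sap30l (−1.22, SE 0.98, and −0.92 without N/D-1). Sap30l, a bridging subunit, was one of 2 SIN3 genes among the 25 tested whose lines did not overlap, against 16.9% of all genes tested, at 54.4 and 37.8 TPM in N/D/S-1 and N/D/S-2 and 132.0 and 87.0 TPM in N/D-1 and N/D-2. The other was Rbbp4, a histone chaperone.

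The complexes that use the same or related deacetylases showed no called gene either. Of 5 NCoR and SMRT subunits, which work with HDAC3, 3 were higher and 2 lower (median 0.53), or 1 higher and 4 lower without N/D-1. In those at 1 TPM or more in every library, the values lay between those of Ncor1, the scaffold (0.53, SE 1.30, and −0.97 without N/D-1), and Tbl1x, a beta-propeller subunit (−0.31, SE 1.06, and −0.67 without N/D-1). Of 11 NuRD subunits, 6 were higher and 5 lower (median 0.17), or 3 higher and 8 lower without N/D-1, and 5 of them had lines that did not overlap (Chd3, Mta3, Mbd3, Gatad2a and Cdk2ap1), to be read beside the 16.9% of all genes. Among NuRD genes at 1 TPM or more in every library, Mbd2, a reader of methylated DNA, had the largest value (0.94, SE 1.20, and −0.38 without N/D-1). Chd3, a chromatin remodeller, had the smallest (−1.40, SE 1.10, and −1.39 without N/D-1). Chd3 was at 35.2 and 7.61 TPM in N/D/S-1 and N/D/S-2 and 45.9 and 45.2 TPM in N/D-1 and N/D-2. N/D/S-2 thus stood far below the other libraries, while N/D/S-1 was nearer to N/D. All 8 other deacetylase genes had their lowest level in N/D-1, and 6 of them a higher estimate in N/D/S, or 3 higher and 5 lower without it. In 2 of them, Hdac5 and Hdac6, the lines did not overlap, against 16.9% of all genes tested. Their values ran from Hdac4 (0.60, SE 1.15, and −0.59 without N/D-1) to Hdac11 (−0.04, SE 0.96, and −0.25 without N/D-1) among those at 1 TPM or more everywhere. Hdac6, a cytoplasmic tubulin deacetylase, was listed at 0 in N/D-1, against 40.7 to 58.4 TPM in the others.

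The Myt1 family, whose members bind SIN3B and LSD1, gave a higher estimate for Myt1 and lower ones for Myt1l and St18 (median −0.04), and without N/D-1 the estimate was below 0 for Myt1 (−0.46) and above it for St18 (0.01). Myt1l, which represses non-neuronal genes in neurons, was at 71.4 TPM in N/D/S-1, 9.17 TPM in N/D/S-2, 82.6 TPM in N/D-1 and 74.8 TPM in N/D-2. The lines did not overlap, as for 16.9% of all genes tested, and N/D/S-1 was close to both libraries of N/D. Its log2 fold change was −1.55 (SE 1.22, adjusted p = 1), and −1.48 without N/D-1.

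Known targets of REST were described last, since a change in REST activity need not show in Rest RNA. Of 25 such genes, 21 were tested, with 15 higher and 6 lower in N/D/S (median 0.32), and with 8 higher and 13 lower (median −0.11) without N/D-1. None passed the test. Gria2, whose RE1 core is printed above, had 54.8 and 20.1 TPM in N/D/S-1 and N/D/S-2 and 3.60 and 70.1 TPM in N/D-1 and N/D-2 (0.92, SE 1.47, and −1.05 without N/D-1). Syn1 was nearly level, with 78.1 and 69.5 TPM in the N/D/S line against 74.5 and 69.9 TPM in the N/D line (0.03, SE 0.96, and 0.08 without N/D-1). Celsr3 had 6.57 and 3.08 TPM in N/D/S, was listed at 0 in N/D-1 and had 3.88 TPM in N/D-2 (1.33, SE 1.16, and 0.19 without N/D-1). Gria2 and Celsr3 were thus both lowest in N/D-1 and next lowest in N/D/S-2, and Syn1 varied little. Of all genes tested, 56.3% were lowest in N/D-1, and 66.4% had N/D/S-2 below both N/D/S-1 and N/D-2. Stmn2, which encodes a growth cone protein, had the smallest log2 fold change of the targets at 1 TPM or more everywhere (−0.48, SE 1.02, and −0.02 without N/D-1), at 1175 and 606.2 TPM in N/D/S-1 and N/D/S-2 and 1631 and 852.9 TPM in N/D-1 and N/D-2. Tubb3, a neuronal tubulin, was the 1 target among the 21 tested whose lines did not overlap, against 16.9% of all genes tested, with 2774 and 2455 TPM in the N/D/S line against 2048 and 1509 TPM in the N/D line (0.57, SE 0.96, and 0.79 without N/D-1).

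**Figure D5:**
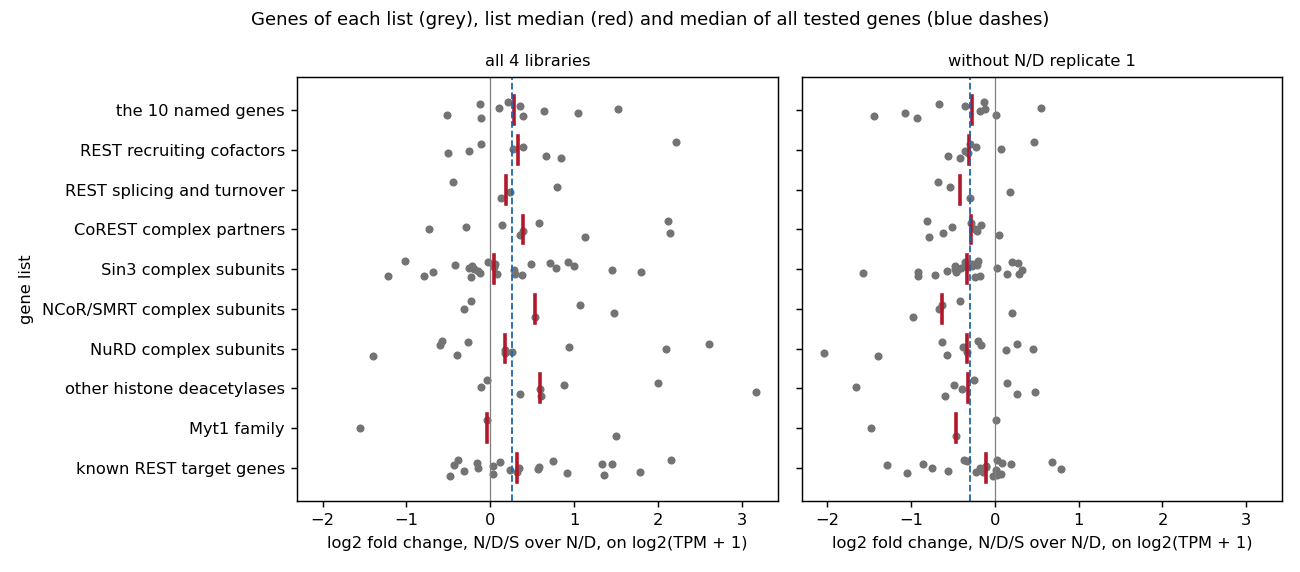
Log2 fold change, N/D/S against N/D, on the log2(TPM + 1) scale (horizontal axis) for each tested gene (grey points) of each list (vertical axis), with the median of the list (red) and that of all tested genes (blue dashes), for all 4 libraries (left) and without N/D-1 (right). The medians of all 10 lists shifted to lower values on the right, as did the median of all genes, from 0.26 to −0.29.

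Genes outside these lists were ranked by how closely their pattern over the 4 libraries followed that of Rest or Kdm1a, after each gene's mean log2(TPM + 1) was removed, with the greatest distance in any library as the measure. Of 12827 genes, Ccdc112 (0.039), Trrap (0.047) and Lgi2 (0.062) were nearest to Rest. Trrap, a scaffold of histone acetyltransferase complexes, had 17.0 and 10.7 TPM in N/D/S-1 and N/D/S-2 and 7.65 and 27.7 TPM in N/D-1 and N/D-2, the same order of libraries as Rest. Nearest to Kdm1a were Relb (0.063), an NF-kappa-B subunit, Tmem8b (0.080) and Zfp455 (0.084). Adding 1 TPM compresses low values, so a near pattern need not mean like ratios of TPM. Rest ran from 0.00232 to 2.15 TPM, a far wider ratio than that of Trrap. Relb had 0.0292 TPM and Zfp455 was listed at 0 in N/D-1, where Kdm1a had 48.5 TPM. With 4 libraries, many genes can come this close.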

How the data were processed

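Reads of the 4 tdTomato+ libraries were pseudoaligned by the authors with kallisto 0.44.0. The submitters' processing notes name GRCm38 and sleuth; the transcriptome release and the step from transcripts to genes are not given in the sources used here. The authors deposited TPM values per gene symbol and library, scaled to transcript length and library total. TPM keeps no read counts, so the depth is unknown and no counting interval is given. Files were joined on symbol after 24 symbols turned into dates were left out, and the 34968 shared symbols were kept. The 12975 genes that reached 1 TPM in 2 or more libraries were tested with limma 3.58.1 in R 4.3.3 on log2(TPM + 1), 2 libraries against 2, without covariates, with Benjamini-Hochberg adjustment at 0.05. Fold changes on this scale understate the change of low genes. Shares were compared by exact permutation tests.

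The 10 genes, the lists and the motifs were chosen with earlier results of these data known. Named were the 10 genes, from each list the genes called or, with none called, those with the largest and smallest log2 fold change among those at 1 TPM or more in every library, the 3 nearest patterns to Rest and Kdm1a, and St18. Other genes were named after their values were seen, for a lack of overlap, a listing at 0, a known role or a printed motif. Gene positions came from GENCODE M21 on GRCm38, and shared 31-base words from its transcripts. Alternatives were other pseudocounts, filters and scalings, quantile normalization, a variance trend, the replicate block and each library left out. The fit was checked on simulated data. Tables were written with pandas 2.3.3 and numpy 2.4.6, and figures with matplotlib 3.10.9, under Python 3.11.15. Sleuth needs kallisto output that was not used here.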

Additional observations from a re-analysis of the deposited data

How the results depend on the processing

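With 2 libraries per line and no read counts, the spread within a line set the limit of every comparison. Besides leaving out libraries, the sign changed for Rest at a pseudocount of 0.1 (0.54) and, under upper quartile scaling, for Sin3b (−0.12) and Hdac3 (0, rounded from below); all 3 had an adjusted p of 1, and the cause was not tested. The filter of at least 1 TPM in every library left 7011 genes and dropped Rest, Rcor1, Rcor3 and Sin3a. The same filter turned the median of the NCoR and SMRT (0.53 to −0.23), NuRD (0.17 to −0.34) and SIN3 lists (0.04 to −0.12), and took that of the REST targets from 0.32 to 0.03 and that of the Myt1 family from −0.04 to −0.80, with fewer genes in each list. Quantile normalization turned the medians of the REST cofactors (−0.14), the splicing and turnover list (−0.05) and the Myt1 family (0.08), and upper quartile scaling those of the SIN3 (−0.17) and NuRD lists (−0.05). A variance trend called 6 genes (5 higher, 1 lower), none of them among the 10. Over all genes, the median was 0.26 on the log2 scale. It moved to 0.14 under upper quartile scaling and quantile normalization, to −0.15 under the stricter filter and to 0.02 without a filter. With 1 library left out, it was 0.02 (N/D/S-1), 0.57 (N/D/S-2), −0.29 (N/D-1) and 0.88 (N/D-2).

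Leaving out each library in turn gave log2 fold changes from −0.93 to 0.72 for Rest, −1.44 to 2.22 for Rcor1, −1.05 to 0.01 for Rcor2, −1.07 to 3.17 for Rcor3, −0.18 to 1.46 for Kdm1a, −0.12 to 3.15 for Sin3a, −0.36 to 0.55 for Sin3b, −0.36 to 1.06 for Hdac1, −0.69 to 0.45 for Hdac2 and −0.13 to 0.55 for Hdac3. The count of genes past the threshold ran from 0 to 2373. The highest count, 2213 higher and 160 lower, came without N/D-2, when N/D-1 alone stood for its line and was assumed to vary like N/D/S. There, limma gave all 10 genes the same SE of 1.15, so for them passing rested on the size of the fold change alone. Rcor3 (3.17) and Sin3a (3.15) passed in this fit, and none of the 10 genes did in any other setting. Without N/D-1, the list medians moved beyond the spread for the REST cofactors (−0.31) and the NCoR and SMRT subunits (−0.63). The latter also did so, upward, when N/D-2 was left out (2.02). Within the spread, leaving out N/D/S-1 turned the medians of the REST cofactors (−0.01), splicing and turnover (−0.13), CoREST partners (−0.01) and SIN3 (−0.36). It also turned those of NCoR and SMRT (−0.19), NuRD (−0.38) and REST targets (−0.05), but not the other deacetylases (0.54) or the Myt1 family (−0.76). Without N/D/S-2, the medians rose, to 1.27 for the CoREST partners, except for NuRD (−0.08).

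With replicate number as a block (replicate block), 0 genes passed and 9 had an unadjusted p under 0.05, against 8 without it and 3 to 3789 over all settings, and the fold changes of the 10 genes were as before, with larger errors (SE 1.33 against 1.06 for Rest). Deviations of same-numbered libraries from their line means had a correlation of 0.02. The labels give only the number, so the libraries were not treated as paired.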

Other observations

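Hdac8, a further class I deacetylase outside the 10 genes, was at 5.87 TPM in N/D/S-1, 0.0495 TPM in N/D/S-2, listed at 0 in N/D-1 and at 7.40 TPM in N/D-2, the same high and low libraries as Rcor1. Brms1l, a SIN3 subunit, followed the replicate number instead, with 33.3 and 43.0 TPM in N/D/S-1 and N/D-1 and 353.8 and 325.5 TPM in N/D/S-2 and N/D-2. The summed pluripotency markers also followed the replicate number. Both patterns were chosen after the values were seen. Of all genes tested, 56.3% were lowest in N/D-1, as Hdac8 was.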
